A study of Mus musculus with 40 samples.

Results

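A set of 322 genomic tiles of 100 bp was examined that carried high DNA methylation in pro-B cells, had lost much of it in wild-type follicular B cells, and kept it in follicular B cells lacking both Tet2 and Tet3. The tiles were chosen from measured levels: a mean of at least 75% over the available pro-B libraries, at most 55% in wild-type follicular cells and at least 70% in double-knockout follicular cells. They came from 316162 autosomal tiles with a value in all 3 wild-type and all 3 double-knockout follicular libraries and in at least 6 of the 12 pro-B libraries, within a table of 971845 tiles. Of the 417 tiles that met the pro-B and the wild-type follicular levels, 322 (77.2%) also met the double-knockout level and 95 did not. The low wild-type and high double-knockout follicular levels and the high pro-B mean are therefore how the tiles were found, and are given as a description with no test. The single knockouts of the follicular stage took no part in the choice.

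The levels come from reduced representation bisulfite sequencing, a method that samples CpG-rich stretches of the genome and reports the methylated share of their cytosines, in 24 libraries of C57/bl mice. Follicular B cells, a mature resting population, came from mice lacking Tet2 and Tet3 (DKO; 7, 7 and 6 weeks, 2 male and 1 female), lacking Tet3 (Tet3KO; all 7 weeks, 2 male and 1 female), lacking Tet2 (Tet2KO; 8, 6 and 6 weeks, all female), and from wild-type mice (WT; 8, 6 and 6 weeks, 2 male and 1 female). Pro-B cells, early precursors that are assembling their heavy-chain genes, came from the same 4 genotypes with the same sexes and ages, so that every group held 3 libraries. The labels describe the knockouts as inducible and driven from the MB1 promoter, which restricts them to the B lineage, and do not say how completely the genes were lost in the cells taken. They do not say that the libraries of a group were from separate mice, so that p-values measure the spread between these libraries, which may be technical.

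DNA methylation at CpG sites is copied at each cell division and can be lost when copying fails or when it is actively removed. The TET enzymes, of which Tet2 and Tet3 are members, turn methylated cytosine into hydroxymethylcytosine and further oxidised bases, which are either replaced by repair or diluted at division. Local loss of methylation at enhancers is a known feature of B-cell maturation, and both enzymes are expressed in B-lineage cells.

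Follicular libraries had a value at 411441 to 608149 tiles of the table, and pro-B libraries at 273728 to 631415, except pro-B Tet3KO library 8 with 24600, which covered only 1 of the 322 tiles. No read counts were given, so the depth behind each level was unknown, also where a library reads 0 or 100%. Pro-B levels were more often at exactly 100% and spread more between libraries: the median SD over the tiles with 3 values was 6.48 points in follicular DKO and 9.01 in follicular WT, against 7.52 in pro-B DKO and 15.9 in pro-B WT. Tet3KO library 21 had the fewest tiles of the follicular stage (411441) and a value at 284 of the 322. Tiles are named by position in build mm9, with no gene names, since no annotation or sequence of that build was used here. For the same reason the genotypes could not be checked at the Tet genes, nor the cell types at their marker genes.

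The choice asked for high levels in DKO and low levels in WT, and both single knockouts stood between them. The medians over the 322 tiles were 91.7%, 89.5% and 90.5% in the 3 follicular DKO libraries. They were 69.3%, 70% and 73.7% in the 3 Tet3KO libraries, 64.7%, 61.7% and 62.1% in the 3 Tet2KO libraries, and 45.5%, 38% and 43.4% in the 3 WT libraries. No library's median reached the range of the next genotype in this order. In pro-B cells the medians ran from 97.6% to 100% in DKO, stood at 91.7% and 100% in Tet3KO libraries 7 and 9, and ran from 85.9% to 91.7% in Tet2KO and from 80.8% to 83.3% in WT. At the 166605 tiles that met the pro-B level but stayed above 55% in follicular WT, the means of the 4 follicular genotypes were within a point of each other, at 93.3% ± 0.175 in DKO, 93.2% ± 0.158 in Tet3KO, 93.0% ± 0.0543 in Tet2KO and 92.7% ± 0.208 in WT (SD, n = 3 libraries each).

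**Figure D1:**
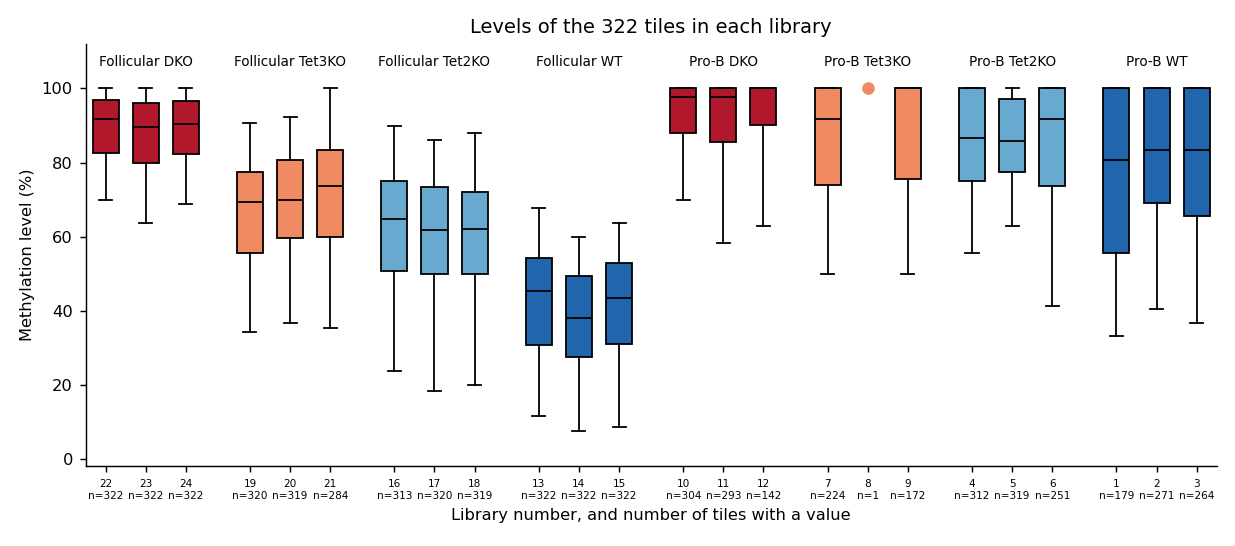
Methylation level (%) of the 322 tiles in each of the 24 libraries; boxes span the quartiles with the median as a line, whiskers reach the 5th and 95th percentiles, and the number under each library counts the tiles with a value (library 8 has 1, drawn as a point). Follicular medians step down from DKO (89.5 to 91.7%) through Tet3KO (69.3 to 73.7%) and Tet2KO (61.7 to 64.7%) to WT (38 to 45.5%); the DKO and WT levels were used to choose the tiles.

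Because the choice favours low readings in the WT libraries, it was repeated with 1 WT library left out and that library read at the tiles so chosen. The left-out WT library then had a median of 53.7%, 45.4% or 48.4% (library 13, 14 or 15, at 418, 337 and 373 tiles with a value). Libraries 13 and 15 so read lay above the WT libraries used in the same choice, which had medians of 40.6% to 46.0% and 38.6% to 46.5%. Library 14 lay within their range of 42.4% to 45.5%. The medians of the single-knockout means at those tiles were 73.1%, 71.0% and 71.9% in Tet3KO and 66.1%, 62.9% and 64.5% in Tet2KO. Both single knockouts thus stood above the median of each WT library that took no part in the choice. In the left-out WT library 52.4%, 66.2% and 59.8% of the tiles lay at or under 55%. Leaving out DKO library 22, 23 or 24 instead gave medians of 91.5%, 88.7% and 89.7% in that library, where 92.4%, 85.2% and 90.1% of the tiles reached 70%.

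The 322 tiles lay on all 19 autosomes, with 28 each on chromosomes 5 and 11, 26 on chromosome 4 and 3 on chromosome 16. Relative to the tiles that met the pro-B level, they numbered 3.99 per 1000 on chromosome 19, the highest, and 0.540 on chromosome 16, the lowest. Most had no other tile of the set close by: joined within 500 bp they formed 297 regions, of which 273 held a single tile, 23 held 2 and 1 held 3. This joins only tiles that met the rule. Of the 322, 197 had another tile with the values asked for 100 bp away that did not meet it. A median of 4 other tiles of the table lay within 1 kb of them (quartiles 2 and 6), against 3 (quartiles 2 and 6) around tiles that met the pro-B level and stayed above 55% in WT, and 5 (quartiles 2 and 10) around all tiles with the values asked for. Stretches with 10 or more other tiles within 1 kb, as CpG islands give, surrounded 5.59% of the 322, against 7.35% and 25.7% of those same sets.

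Among the 322, WT levels ran from 0 to 54.9% with a median of 43.9%, and 34 tiles lay under 20%. Just inside the WT limit were chromosome 11, 114292401 to 114292500, at 54.85% and chromosome 3, 126649201 to 126649300, at 54.85%, and just outside it chromosome 1, 130584001 to 130584100, at 55.02% and chromosome 17, 5101401 to 5101500, at 55.03%. DKO levels just inside the limit of 70% were 70.1% at chromosome 13, 11421201 to 11421300, and 71.1% at chromosome 12, 112267101 to 112267200. Just outside were 69.8% at chromosome 13, 49817601 to 49817700, and 69.6% at chromosome 11, 83682101 to 83682200. The pro-B mean was 75.03% and 75.07% at the nearest tiles inside, chromosome 5, 124668901 to 124669000, and chromosome 4, 34174201 to 34174300, and 74.98% and 74.96% at the nearest outside, chromosome 15, 4814901 to 4815000, and chromosome 2, 62248401 to 62248500. Over these 12 borderline tiles the single knockouts ran from 49.2% to 77.9% in Tet3KO and from 38.6% to 74.8% in Tet2KO.

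The 8 regions with the most tiles, and among equals the lowest WT level, show the step from DKO to WT in single places. The only region of 3 tiles was chromosome 4, 140491601 to 140491900. Its level was 87.2%, 91.8% and 77.9% in the 3 follicular DKO libraries, 82.0%, 73.3% and 76.0% in Tet3KO, 56.9%, 58.5% and 46.9% in Tet2KO, and 39.4%, 36.8% and 37.0% in WT. Tet3KO and DKO overlapped there, while all Tet2KO libraries lay below both and above WT. Tet3KO exceeded Tet2KO by 23.05 points (two-sided exact permutation p = 0.1, the smallest that 3 against 3 libraries can give). Pro-B cells of the 4 genotypes averaged 92.2% ± 11.8 in DKO (n = 3), 80.9% ± 16.2 in Tet3KO (n = 2), 92.0% ± 8.06 in Tet2KO (n = 3) and 98.1% ± 2 in WT (n = 3).

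Chromosome 9, 44379101 to 44379300, was the most extreme of these regions in WT. It stood at 97.3%, 91.0% and 100% in follicular DKO, at 38.4%, 44.1% and 53.4% in Tet3KO, at 6.79%, 11.3% and 12.1% in Tet2KO and at 1.37%, 1.24% and 0.779% in WT. The 4 genotypes were all apart, and Tet2KO lay much nearer to WT than Tet3KO did. Tet3KO was 35.2 points above Tet2KO (exact permutation p = 0.1). The lower of the limma adjusted p-values of its 2 tiles was 0.0617, the lowest among the 317 fitted tiles of the set in that comparison. Pro-B coverage was thin here, with 93.9% in the only DKO library with a value, 100% in the only Tet3KO library, 98.3% ± 2.95 in Tet2KO (n = 3) and 99.3% in the only WT library.

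At chromosome 8, 74844701 to 74844900, the follicular level was 89.5%, 82.1% and 92.5% in DKO, 63.2%, 58.6% and 58.0% in Tet3KO, 27.7%, 26.8% and 16.7% in Tet2KO and 16.6%, 13.1% and 15.4% in WT. All 4 genotypes were again apart, by the narrow margin of 16.7% against 16.6% between Tet2KO and WT, and Tet3KO was 36.2 points above Tet2KO (exact permutation p = 0.1). Chromosome 2, 167679101 to 167679300, stood at 83.8% ± 3.01 in DKO, 66.0% ± 3.74 in Tet3KO, 44.5% ± 14.6 in Tet2KO and 20.8% ± 0.266 in WT (n = 3 each), with Tet3KO 21.4 points above Tet2KO (exact permutation p = 0.1).

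Adjoining tiles could differ in how far they followed the single knockouts. At chromosome 19 the region 7029801 to 7030000 joined a first tile at 73.8% ± 5.41 in Tet3KO and 28.6% ± 16.7 in Tet2KO with a second at 14.6% ± 1.81 in Tet3KO and 11.01% ± 6.28 in Tet2KO (n = 3 each). Both tiles were high in DKO (95.2% ± 4.18 and 86.9% ± 3.97) and low in WT (11.5% ± 6.63 and 4.88% ± 4.88).

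In the other 3 of these regions Tet3KO and Tet2KO overlapped. Chromosome 6, 88726901 to 88727100, stood at 94.0% ± 2.45 in DKO, 50.8% ± 8.19 in Tet3KO, 32.7% ± 14.9 in Tet2KO and 23.2% ± 3.74 in WT (Tet3KO against Tet2KO, exact permutation p = 0.2, n = 3 each). Chromosome 4, 8636501 to 8636700, stood at 87.0% ± 13.9 in DKO, 52.6% ± 11.5 in Tet3KO, 42.6% ± 13.2 in Tet2KO and 27.3% ± 4.18 in WT (exact permutation p = 0.4). At chromosome 3, 88419801 to 88420000, the single knockouts differed by 3.95 points (exact permutation p = 0.9). Over all 24 regions of 2 or more tiles the Tet3KO mean was above the Tet2KO mean in 21; the 3 Tet3KO libraries all lay above the 3 Tet2KO libraries in 13, and all below in 0. Among single tiles of the whole table these arrangements were found at 4.64% and 3%, and no such share was computed for joined regions.

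**Figure D2:**
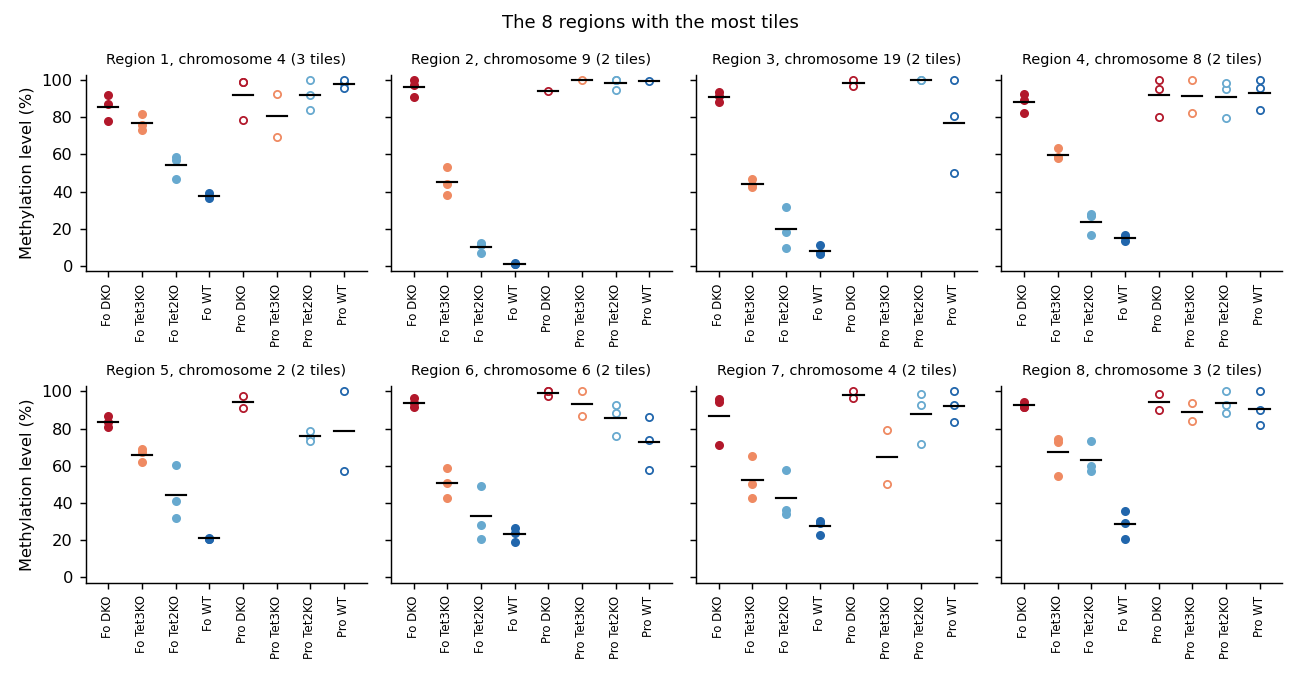
Methylation level (%) of the 8 regions with the most tiles, numbered from chromosome 4, 140491601, to chromosome 3, 88419801; each point is a library, filled for follicular and open for pro-B cells, and lines are group means. In every panel follicular DKO is highest and follicular WT lowest of the follicular genotypes by group mean. The choice asks for high DKO and low WT levels and sets no limit on the single knockouts. Tet3KO is above Tet2KO (by 3.95 to 36.2 points) and pro-B levels are mostly high. Regions 3 and 5 have no pro-B Tet3KO value.

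Most of the tiles stood higher in Tet3KO than in Tet2KO, although no single tile passed the test. Since neither group was used in the choice, this is the follicular comparison that can be tested. Over the 322 tiles the mean of library means was 68.3% ± 2.09 in Tet3KO and 60.1% ± 1.25 in Tet2KO (SD, n = 3 each), and the median of the tile-by-tile differences was 7.17 points, against 0 over all 316162 tiles with the values asked for. The Tet3KO mean was above the Tet2KO mean at 231 tiles (71.7%) and below it at 91. It was at least 20 points above at 60 tiles and at least 20 points below at 8.

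Of the 275 tiles with all 6 single-knockout values, 68 (24.7%) had their 3 Tet3KO libraries above their 3 Tet2KO libraries, against 4.64% of all autosomal tiles with these values. The reverse held at 3 tiles (1.09%), against 3%. Many tiles of the table lie near 0 or 100%, where differences are small. Among tiles with a single-knockout mean of 20 to 80% the shares over all tiles were 8.5% and 3.28%, with 62 (25.2%) and 3 (1.22%) of 246 tiles of the set. The 68 tiles lay on 17 chromosomes and differed by 5.87 to 48.9 points, with a median of 23.97. Their medians were 91.9% in DKO, 77.3% in Tet3KO, 53.8% in Tet2KO and 34.3% in WT. At the other 204 tiles the genotypes overlapped.

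Tested tile by tile, none of these differences was called. Limma was fitted to the 450725 autosomal tiles with at least 2 values in each follicular group, 317 of them in the set, and a call asked for a Benjamini-Hochberg adjusted p under 0.05 and a difference of at least 20 points. It called 0 of the 317 higher in Tet3KO (0.000444% of all tiles tested) and 0 lower (0.00111%). At an unadjusted p under 0.05 were 63 of the 317 (19.9%) and 5.16% of all tiles. Fits without 1 library called 1 to 3 tiles of the set higher and 0 or 1 lower. Of all 450725 tiles they called 12 to 130 higher and 11 to 262 lower, more than the 2 and 5 of the main fit. Tet2KO mice were all female and 6 or 8 weeks old, and Tet3KO mice 2 male and 1 female and 7 weeks old. With sex as a covariate 0 tiles of the set were called in each direction, against 2 higher and 6 lower of all 450635. An unadjusted p under 0.05 was then found at 61 of 317, against 23975 of all tiles. No age was shared by these genotypes, and no fit with age as a covariate was run, so the part of age was not tested. Without Tet3KO library 21, which has the fewest tiles, 96 of 306 tiles (31.4%) had both other Tet3KO libraries above the 3 Tet2KO libraries, against 8.02% of all tiles, and 9 (2.94%) below, against 6.77%. Without Tet2KO library 16 these were 100 of 279 (35.8%), against 8.73%, and 9 (3.23%), against 5.87%.

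**Figure D3:**
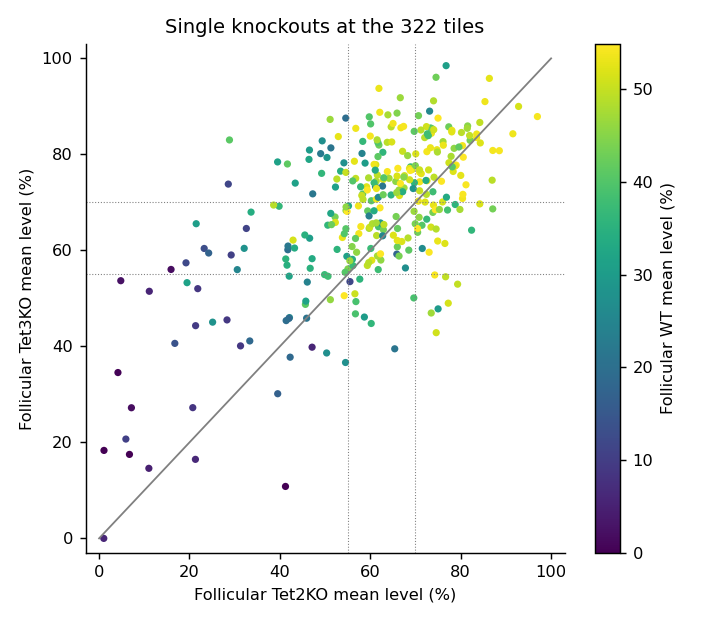
Mean follicular level (%) of each of the 322 tiles in Tet3KO (vertical) against Tet2KO (horizontal), coloured by the WT mean; the solid line marks equal levels and dotted lines mark 55% and 70%. 231 tiles lie above the line and 91 below it, and tiles of low WT level (dark) spread furthest towards the lower left.

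Named by the largest differences among the tiles without overlap, Tet3KO was highest over Tet2KO at chromosome 1, 167593001 to 167593100. Its levels were 50%, 39.6% and 71.4% in the Tet3KO libraries and 13.2%, 1.18% and 0% in the Tet2KO libraries, with 92.0% ± 5.84 in DKO and 2.38% ± 4.12 in WT. The difference was 48.9 points (SE 7.74, limma adjusted p = 0.165), which was not called. The first tile of the chromosome 19 region above came next, with 45.2 points (SE 8.46, limma adjusted p = 0.280). At chromosome 18, 53339701 to 53339800, the levels were 75%, 100% and 58.3% in DKO, 66.7%, 60% and 70% in Tet3KO and 18.2%, 39.1% and 7.14% in Tet2KO, which lay about the WT level of 30.5% ± 10.5 (difference 44.1 points, SE 11.8, limma adjusted p = 0.635).

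The 3 tiles with Tet2KO above Tet3KO were also named by this rule, and none was called. Chromosome 17, 6981601 to 6981700, was listed at 0 in all 3 WT libraries and stood at 86.7%, 90.9% and 100% in DKO, 12.1%, 6.06% and 14.3% in Tet3KO and 46.3%, 46.3% and 31.0% in Tet2KO (difference -30.4 points, SE 5.05, limma adjusted p = 0.197). Chromosome 2, 31353201 to 31353300, stood at 95.7% ± 1.7 in DKO, 53.0% ± 5.24 in Tet3KO, 79.3% ± 8.78 in Tet2KO and 49.9% ± 4.35 in WT (difference -26.4 points, SE 5.51, limma adjusted p = 0.377). Tet3KO there lay near WT. At chromosome 6, 137264701 to 137264800, Tet3KO stood at 54.9% ± 8.97 and Tet2KO at 74.3% ± 7.08 (difference -19.4 points, SE 11.6, limma adjusted p = 0.946), with WT libraries spread from 37.5% to 83.3%.

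Measured by the limits that define the tiles, Tet3KO had 166 of the 322 (51.6%) at 70% or more and 53 (16.5%) at 55% or under. Tet2KO had 100 (31.1%) at 70% or more and 94 (29.2%) at 55% or under. At 72 tiles both single knockouts were at 70% or more, and at 37 both were at 55% or under, so that at these 37 tiles only DKO was high among the follicular genotypes. At 21 tiles Tet3KO was at 70% or more while Tet2KO was at 55% or under, and at 7 tiles the reverse held. The 2 single knockouts went together across the tiles (Pearson r = 0.629, Spearman rho = 0.519, n = 322), a description over tiles that share libraries and their own base composition.

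The single-knockout levels were lowest, and kept the smallest share of the gap between WT and DKO, at the tiles lowest in WT. At the 37 tiles where both single knockouts stayed at 55% or under, the medians were 90.2% in DKO, 44.3% in Tet3KO, 33.3% in Tet2KO and 16.9% in WT. At the 72 tiles where both stayed at 70% or more they were 93.0% in DKO, 81.5% in Tet3KO, 76.5% in Tet2KO and 51.2% in WT. As a share of that gap, the level kept was a median of 40.7% in Tet3KO and 16.8% in Tet2KO at the 34 tiles with WT under 20%. It was 65.2% and 42.6% at the 91 tiles with WT between 20 and 40%, and 68.5% and 49.6% at the 197 tiles above. These shares use the WT and DKO levels that chose the tiles and are given without a test. Over all 322 the share was 62.9% in Tet3KO and 43.4% in Tet2KO, and the DKO difference from WT minus the sum of both single differences had a median of -2.71 points, with quartiles from -14.5 to 11.1 points.

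The 3 tiles with the lowest single-knockout levels show the far end. Chromosome 17, 86866801 to 86866900, stood at 100%, 85.7% and 95.2% in follicular DKO, was listed at 0 in all 3 Tet3KO libraries, stood at 3.12%, 0% and 0% in Tet2KO and at 14.6%, 0% and 3.12% in WT. Only DKO was high there. Pro-B Tet2KO was at 100% in 3 libraries and pro-B WT at 95.2% and 96.4%, while the only Tet3KO library with a value stood at 42.3%. Chromosome 15, 61813201 to 61813300, stood at 93.9%, 98.0% and 97.8% in DKO, 24.2%, 26.2% and 31.2% in Tet3KO, 2.20%, 14.1% and 5.13% in Tet2KO and 0%, 2.97% and 2.33% in WT. The remaining tile was the second of the chromosome 19 region.

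At the opposite end, single knockouts stood near DKO. Chromosome 12, 118796001 to 118796100, was at 100% in all 3 DKO libraries, at 89.99% ± 9.51 in Tet3KO, 92.8% ± 6.46 in Tet2KO and 51.4% ± 6.97 in WT. Chromosome 7, 27658501 to 27658600, was at 92.6% ± 8.49 in DKO, 95.8% ± 7.22 in Tet3KO, 86.3% ± 7.09 in Tet2KO and 52.6% ± 21.5 in WT, with WT library 14 at 27.8% and the other 2 at 65.6% and 64.3%. Chromosome 6, 8434601 to 8434700, was at 84.8% ± 26.2 in DKO, 98.5% ± 2.62 in Tet3KO, 76.8% ± 7.49 in Tet2KO and 30.8% ± 12.7 in WT (n = 3 each). Both single knockouts lay within 10 points of DKO at 25 tiles and within 10 points of WT at 11.

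Against WT the single knockouts stood higher almost throughout, but the WT libraries were used to choose the tiles, and nothing is read from these counts. The Tet3KO mean was above the WT mean at 317 of the 322 tiles and the Tet2KO mean at 312.

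The 95 tiles that lost methylation in WT and did not reach 70% in DKO differed from the set in the single knockouts. Their median levels were 60.7% in DKO, 59.2% in Tet3KO, 55.5% in Tet2KO and 48.8% in WT. There the median difference of Tet3KO from Tet2KO was 1.62 points, against 7.17 in the set, and those from WT were 10.2 points in Tet3KO and 7.85 in Tet2KO, against 26.5 and 20.2. The DKO limit that separates both sets bears on these values, and no test was made.

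Differences between the genotypes were also seen at adjoining tiles and were smaller further away. Of the other tiles with the values asked for, 221 lay 100 bp away, next to a tile of the set, and did not meet the rule themselves. Their library medians were 92.0%, 90.6% and 91.4% in DKO, 84.7%, 83.8% and 84.7% in Tet3KO, 79.5%, 80.5% and 79.2% in Tet2KO and 71.1%, 69.8% and 69.7% in WT. The same order of genotypes held without overlap. The median difference of DKO from WT was 17.1 points next to the tiles, 7.79 points at 200 bp (118 tiles), 4.0 at 300 to 500 bp (109 tiles), 0.357 at 600 to 1000 bp (122 tiles) and 1.08 at 1100 to 2000 bp (204 tiles), against 0.188 over all other tiles with these values. DKO was at least 20 points above WT at 44.8%, 22.9%, 19.3%, 9.84% and 7.35% of those tiles, against 1.84%.

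Limma called 38 of the 218 adjoining tiles it could test as higher in DKO than in WT (17.4%), and 6 of 116 at 200 bp (5.17%), against 0.231% of all tiles tested. All 3 DKO libraries lay above all 3 WT libraries at 128 of the 221 adjoining tiles (57.9%), against 7.12% of all tiles. For the single knockouts, 34 of 193 adjoining tiles with all 6 values (17.6%) had the Tet3KO libraries above the Tet2KO libraries and 5 had them below, against 4.64% and 3% of all tiles. No share among tiles of a like level was computed for the adjoining tiles. Adjoining tiles can be covered by the same reads as the tile they adjoin, so they are not independent of it. The share of such reads in this was not tested. The DKO and WT libraries compared here also chose the set, so the counts of DKO above WT are a description.

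**Figure D4:**
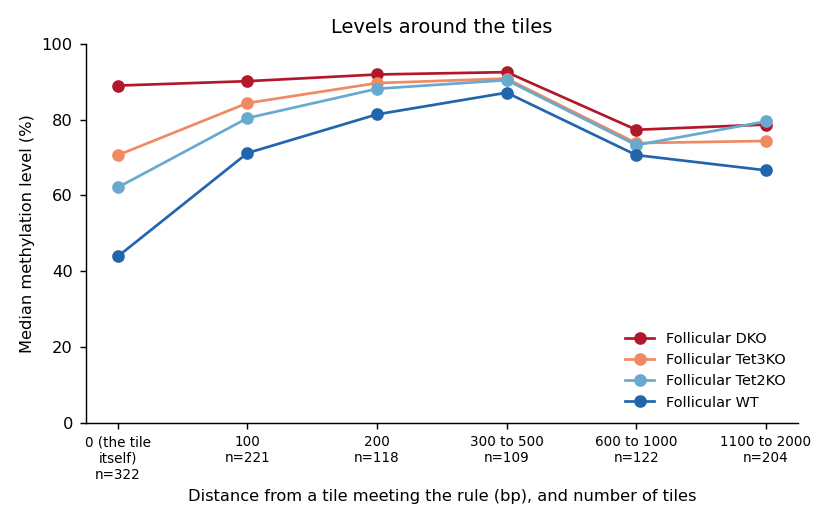
Median follicular methylation level (%) of the 322 tiles (distance 0, where DKO and WT were used for the choice) and of other tiles by their distance in bp, in classes of unequal width with the number of tiles under each. The 4 genotypes stand 45 points apart from DKO to WT at the tile itself and less far apart in every class beyond it; the class medians do not close steadily, since at 1100 to 2000 bp DKO stands at 78.7%, Tet2KO at 79.6% and WT at 66.6%, while the tile-by-tile difference of DKO from WT has a median of 1.08 points there.

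In pro-B cells the genotypes also stood apart, but this depended on which pro-B libraries set the pro-B level. The pro-B libraries took part in the choice through their mean. The shares and tests of this paragraph are shaped by that choice and are a description. The mean of library means over the tiles was 91.4% ± 1.14 in DKO, 84.2% ± 0.910 in Tet2KO and 78.0% ± 2.09 in WT (SD, n = 3 each), and 85.3% and 87.2% in Tet3KO libraries 7 and 9. Of the 78 tiles with 6 values, 20 (25.6%) had the 3 DKO libraries above the 3 WT libraries, against 3.64% of all tiles, and 0 below, against 1.41%. For Tet2KO and WT these were 10 (8.47%) and 2 (1.69%) of 118 tiles, against 3.62% and 2.42%. All tiles include many near 0, where differences are small, and no pro-B share among tiles of a like level was computed. Limma called 0 of 104 tiles higher in DKO (0.0138% of the 210376 tiles tested), 0 in Tet2KO (0.00475%) and 0 in Tet3KO (0.0157%), with an unadjusted p under 0.05 at 16 (15.4%), 9 (8.65%) and 13 tiles (12.5%), against 4.16%, 3.47% and 4.1% of all tiles. None was called lower (0.0057%, 0.00285% and 0.028% of all tiles). Without DKO library 10, 1 of 104 tiles was called lower in DKO, against 383 of all 210376. Without Tet3KO library 7, 2 of 104 were called lower in Tet3KO, against 1864 of all tiles. That fit left Tet3KO libraries 8 and 9, and library 8 had a value at 1 tile of the set. Library 12 of DKO and library 1 of WT covered fewest tiles of their groups. Without both, 61 of 198 tiles (30.8%) had DKO above WT, against 10.9%, and 10 (5.05%) below, against 6.76%. A fit without the Tet3KO libraries, added after seeing the data, tested 226 tiles and called 1 higher in DKO (0.0199% of all tiles).

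The rule averages the pro-B libraries of all genotypes, so that a tile already lower in pro-B WT could enter through high knockout levels: the pro-B WT mean was under 75% at 117 of 318 tiles. When the pro-B level was asked of the WT libraries alone, 231 tiles were found, 161 of them among the 322. At these the pro-B mean was 84.5% ± 2.27 in DKO, 77.2% ± 1.83 in Tet2KO and 86.3% ± 0.443 in WT (n = 3 each). In pro-B Tet3KO, where library 8 had few tiles, the mean of library means was 66.5% ± 14.5 and the median level 81.85%, both below WT. The means of DKO and WT were thus in the opposite order, while the median level was still higher in DKO (90.9%) than in WT (85%). There, 4 of 53 tiles (7.55%) had the DKO libraries above the WT libraries, against 3.64% of all tiles, and the reverse was not counted. That choice in turn favours high readings in pro-B WT. The follicular single knockouts changed little, at 68.4% ± 2.63 in Tet3KO and 59.7% ± 0.838 in Tet2KO. Their libraries were apart with Tet3KO above at 45 of 186 tiles (24.2%), against 4.64% of all tiles, and below at 2 (1.08%), against 3%. At the tiles adjoining the 322, the library medians in pro-B cells were 96.6%, 95.4% and 98.0% in DKO and 67.9%, 79.5% and 83.0% in WT. They were 86.2%, 88.1% and 84.6% in Tet2KO, and 90.2% and 90% in Tet3KO libraries 7 and 9. These tiles adjoin tiles chosen on the pro-B mean of all genotypes and can share reads with them, so they are not independent of that choice.

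**Figure D5:**
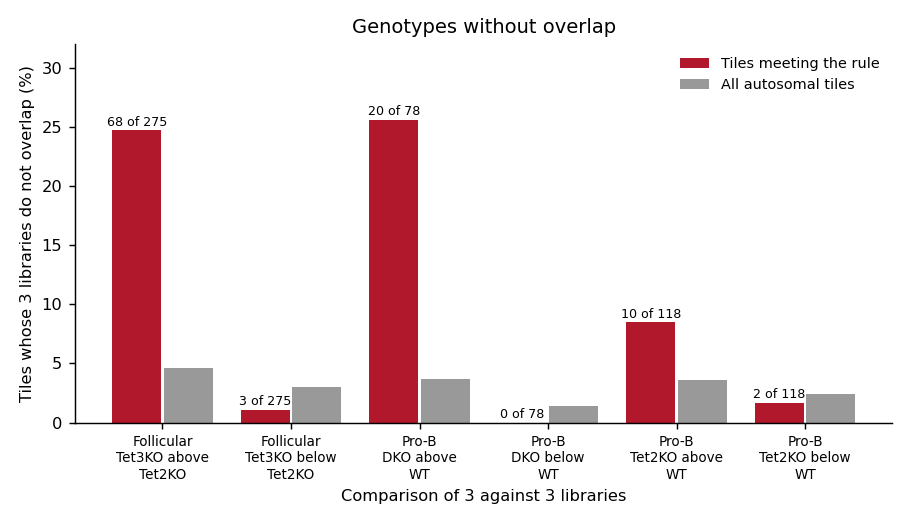
Share (%) of tiles whose 3 libraries of a genotype all lie above, or all below, the 3 of the other, for tiles of the set (red, with counts) and all autosomal tiles with the values (grey). Follicular Tet3KO lies above Tet2KO at 24.7% of the tiles against 4.64% of all tiles; the pro-B share of DKO above WT is 25.6% against 3.64%, and the 7.55% found when pro-B WT alone sets the pro-B level is not drawn.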

How the data were processed

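RRBS levels of 24 libraries were analysed; 16 RNA samples of the series were not analysed here. The deposited table holds, per the file headers, positions of 100 bp tiles and a methylation fraction from 0 to 1 for each library, without read counts. Trim Galore, methylKit and the builds mm9 and hg19 are named in the submitters' processing notes; the aligner, conversion rate and coverage minimum are not given in the sources used here. Positions were read as mm9, since chromosome 1 reaches 197193600, and were not converted. Fractions were multiplied by 100.

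The tiles, lists and rules for naming were chosen with earlier results of these data known. Named were the 8 regions with most tiles, the 3 largest separated differences between single knockouts in each direction (no tile was called), the 3 highest and 3 lowest single-knockout levels, and the tiles nearest each limit. Tiles called in pro-B DKO were to be named, and there were none. Limma 3.58.1 (R 4.3.3, trended prior) was fitted within each stage with 4 groups, to tiles with at least 2 values per group; differences are the first named group minus the second, two-sided. Scipy 1.17.1 gave exact permutation tests of regions. No p was computed over the set of tiles. At tiles of the set, tests that use the follicular WT or DKO libraries of the choice are not given. At adjoining tiles they are given as a description. Pro-B tests at tiles of the set use libraries whose mean entered the choice and are also a description. X and Y were left out. The fit was tested on simulated data. Libraries of a group correlated at 0.887 to 0.985 over tiles with the values asked for, and at tiles of 20 to 80% at most 1.91% of values were identical between 2 of them. Alternatives were other pro-B libraries and limits in the rule, logit values (levels bounded at 0.01 and 0.99) and all 24 libraries in a single fit. Others were only the compared groups, sex, centring, complete values, 30 points, and each library left out. Those on separated libraries, and the pro-B fit without the Tet3KO libraries, were chosen after seeing the data.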

Additional observations from a re-analysis of the deposited data

How the results depend on the processing

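No paired analysis was possible because every library has a number of its own and the labels name no mouse, litter or batch that groups share. Pro-B and follicular libraries of a genotype match in sex and age and may be from the same mice; the fit of all 24 libraries treats them as independent. The number of tiles was 165 with at least 9 of 12 pro-B values and 159 with limits stricter by 5 points, and 322 to 419 without a library. Without a library the median level was 69.3% to 73.1% in Tet3KO and 62.1% to 66.1% in Tet2KO, the highest when the choice left out WT library 13. Tiles with Tet3KO libraries above Tet2KO libraries numbered 45 with the pro-B level set by pro-B WT and 34 with at least 9 pro-B values. Without a library they numbered 65 to 100. The reverse numbered 3 to 5 without a library of the choice, 9 without Tet3KO library 21 and 9 without Tet2KO library 16. It numbered 5 with each library centred. Pro-B DKO above WT held at 4 of 53 tiles (7.55%) with the level set by pro-B WT and at 7 of 31 (22.6%) with stricter limits. The main choice gave 20 of 78 (25.6%), and all tiles 3.64%. Without libraries it held at 18 to 61 tiles. The 61 were without DKO library 12 and WT library 1, where 2 against 2 libraries are asked and 198 tiles have values. The share of all tiles was then 10.9%. Calls of 0 became, without a library, 1 to 3 higher and 0 to 1 lower for follicular Tet3KO against Tet2KO. Of all 450725 tiles 12 to 130 were then called higher and 11 to 262 lower. For pro-B DKO, Tet2KO and Tet3KO against WT the calls of 0 became 0 to 3, 0 to 2 and 0 to 2 higher (the highest without pro-B WT library 2). Of all 210376 tiles 162 to 406, 63 to 361 and 36 to 649 were then called higher. Pro-B tiles of the set called lower numbered 1 in DKO without library 10 and 2 in Tet3KO without library 7. Of all tiles fitted 383 and 1864 were then called lower. With all 24 libraries in a single fit these were 1 higher, 1 lower, 2, 1 and 1, and without the pro-B Tet3KO libraries 1 for DKO and 1 for Tet2KO. The single-knockout differences of the 6 named tiles kept their direction under every alternative run. Chromosome 1, 167593001, would be called without Tet3KO library 20 (adjusted p = 0.0261, range over its alternatives 0.0261 to 0.548), and chromosome 2, 31353201, with all 24 libraries (0.0137, range 0.0137 to 0.753). Chromosome 19, 7029801, would be without Tet2KO library 16 (0.0444, range 0.0444 to 0.785) and chromosome 17, 6981601, without Tet2KO library 18 (0.0394, range 0.0394 to 0.831). Where leaving out a library left a group with a single value, that value was taken to have the spread of the rest. The cause of these changes was not tested. Unknown depth limits all levels at exactly 0 or 100%.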

Other observations

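On the X chromosome, which was left out because the share of females differed between genotypes, 8588 tiles had the values asked for. Of these 5 met the pro-B and WT follicular levels and 1 also met the DKO level.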
